A study of Mus musculus with 6 samples.

Results

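The ISG15 conjugation system was examined as 6 genes of mouse liver RNA-seq, chosen by symbol from 40803 genes in the count table: Isg15, Uba7, Ube2l6, Herc6, Usp18 and Rnf213. The 6 libraries came from 6 C57BL6 mice, 3 injected with rAAV8-Scramble and 3 with rAAV8-Hnf1aos1, below called the scramble and knockdown groups. Both viruses were recombinant adeno-associated viruses of serotype 8, which enter hepatocytes, and both drove a hairpin RNA from the U6 promoter and carried an EGFP reporter; the hairpin was a scrambled control in the scramble group and targeted the long non-coding RNA Hnf1aos1 in the knockdown group. The mice were normally fed males of about 6 weeks at tail vein injection, and livers were taken 4 weeks later. Each group rests on 1 hairpin sequence, all 6 mice carried a virus, and mice without a virus are not analysed here.

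ISG15 is a small protein made of a pair of ubiquitin-like folds, which cells attach to other proteins after exposure to type I interferon. The E1 enzyme UBA7 activates it, the E2 enzyme UBE2L6 carries it, and in mice the ligase HERC6 transfers it to its substrates, a role that HERC5 has in human cells. USP18 removes ISG15 again and, apart from its protease activity, restrains signalling at the type I interferon receptor. RNF213 is a very large ubiquitin ligase that is itself induced by interferon, binds proteins that carry ISG15 and is found on lipid droplets.

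Isg15 occupies the minus strand of chromosome 4 (GRCm38) from 156199424 to 156200818. Its upstream sequence is shown because it matches the core of the interferon-stimulated response element, the motif by which interferon-activated transcription factors bind DNA. That core was searched on both strands as GAAA, any 2 bases and GAAA, in windows of 250 bases before to 50 bases after each gene's start (RefSeq, GRCm38.p6). The 128 bases before the start, chr4:156200819-156200946, read 5′ to 3′ on the gene's strand with the matches in capitals.
Isg15 promoter: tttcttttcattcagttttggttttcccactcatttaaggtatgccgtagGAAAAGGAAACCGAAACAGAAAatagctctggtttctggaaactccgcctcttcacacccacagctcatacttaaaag
The capitals are 3 overlapping matches, GAAAAGGAAA, GAAACCGAAA and GAAACAGAAA, each sharing 4 bases with the next, and run from −78 to −57 counted from the start. Of 32851 windows in the table, 1131 (3.44%) held the core at least once, and 5 held it 3 times or more. The RefSeq table matched 5 of the 6 genes. Its window for Rnf213, on chromosome 11 from 119389849 to 119390148, belongs to a start upstream of the GENCODE start given below, so the values for Rnf213 describe that other start. The windows of Uba7, Ube2l6, Herc6 and Rnf213 held no match to these letters, and none of the 5 windows held TTCNNNGAA, the letters of the gamma-activated site, which 8.3% of all windows held. The 5 windows also differed in base composition, from 44.7% G and C with 2 CpG in Uba7 to 67% with 27 CpG in Rnf213. A match or its lack describes these letters in this window only.

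The other genes are on the plus strand in GRCm38: Ube2l6 on chromosome 2 from 84798828 to 84810335, Herc6 and Usp18 on chromosome 6 from 57581000 to 57664632 and from 121245906 to 121270917, Uba7 on chromosome 9 from 107975505 to 107984060, and Rnf213 on chromosome 11 from 119393100 to 119487418. None lies on chromosome 5, where Hnf1aos1 is. Rnf213 shares 1476 exonic bases with A930037H05Rik on the opposite strand, and Usp18 shares 124 with Gm44148, also on the opposite strand. On the same strand, Herc6 shares 1269 with Gm45193 and Uba7 shares 233 with Gm20661, neither of which is named among the counted genes. The strand and overlap settings of the counting are not given in the sources used here, so whether reads in shared bases were assigned to a gene or left out is not known. A930037H05Rik had 214 counts over the 3 scramble libraries and 486 over the 3 knockdown libraries, against at least 5455 counts of Rnf213 in a single library.

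Gene totals ran from 14704746 to 19462398 counts per library. Levels are given as the authors' TPM, which corrects for gene length and so allows genes to be set side by side, and folds come from raw counts by the quasi-likelihood test of edgeR, its p-values adjusted by Benjamini-Hochberg across 16327 tested genes. An adjusted p under 0.05 is a call. The targeted gene Hnf1aos1 had 512, 491 and 620.3 normalized counts (edgeR's TMM scale) in scramble replicates 1 to 3 and 278, 258 and 433 in knockdown replicates 1 to 3. edgeR did not call it (log2 fold change −0.74, standard error 0.195, adjusted p = 0.0625), DESeq2 did (adjusted p = 0.00341), and so did edgeR without knockdown replicate 3 (log2 fold change −1.01), the knockdown library with the most of it. As the RNA came from whole liver, fewer cells of a type and less RNA per cell cannot be told apart.

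All 6 genes of the system had higher levels in every knockdown library than in any scramble library. For comparison across the table, 15.2% showed that lack of overlap in the same direction. Log2 fold changes ran from 0.65 for Ube2l6 to 3.55 for Isg15 with a median of 1.72, beside a median of −0.00040 over all genes tested. edgeR called 5 of the 6 higher, Ube2l6, Herc6, Rnf213, Uba7 and Usp18, while 3.09% of all genes tested were called higher. With a log2 fold change above 1 as a further condition 4 of the 6 were called, against 0.784% of all genes. Isg15, the modifier itself, had the widest change and missed the threshold. DESeq2 called 6 of the 6, beside 3.64% of the genes it tested.

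**Figure D1:**
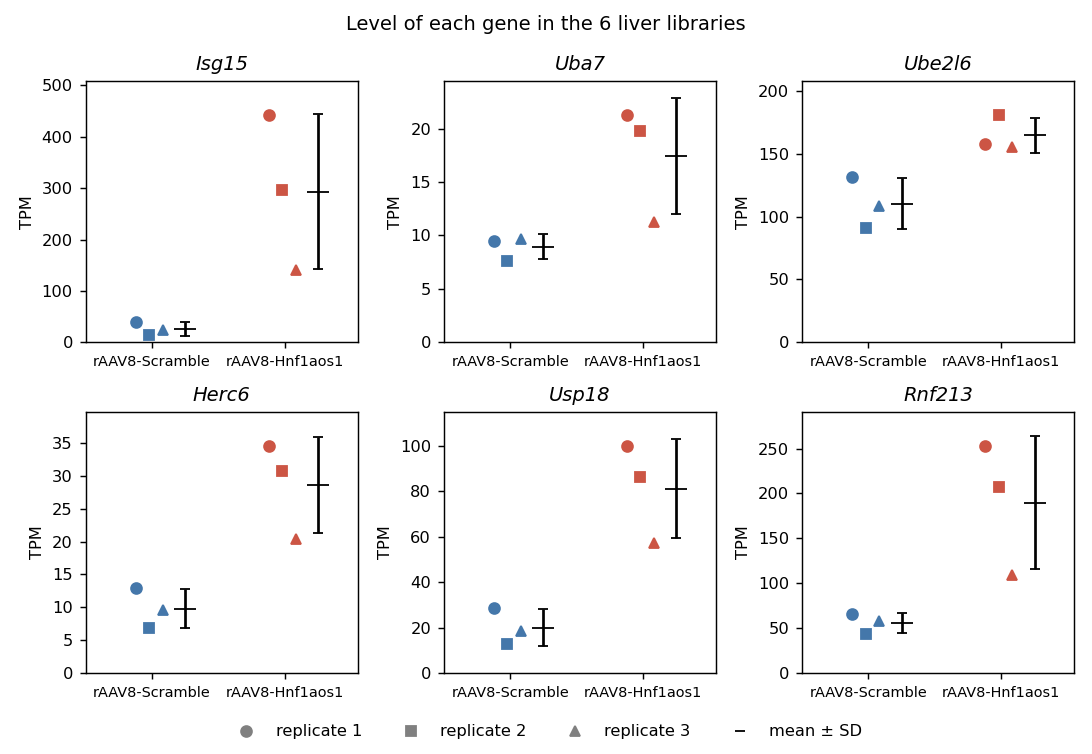
TPM (y axes, each from 0) of the 6 genes in the 3 rAAV8-Scramble and 3 rAAV8-Hnf1aos1 libraries, 1 marker shape per replicate number, with the group mean and SD in black. Every knockdown marker lies above every scramble marker, with the lowest knockdown library 1.16 times the highest scramble library for Uba7 and 3.52 times for Isg15.

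For the modifier Isg15, TPM was 39.9, 14.3 and 24.1 in scramble replicates 1, 2 and 3 and 442, 297 and 141 in knockdown replicates 1, 2 and 3. The lowest knockdown library thus stood 3.52 times above the highest scramble library, although levels spread 2.8-fold within the scramble group and 3.15-fold within the knockdown group. Mean TPM was 26.1 ± 12.9 for scramble and 293 ± 151 for knockdown (SD, n = 3 each). The raw counts behind them were 228, 77 and 123 in the scramble libraries and 2731, 1955 and 964 in the knockdown libraries. The log2 fold change was 3.55 (standard error 0.624), or 11.7-fold, ranking 12 among the 16327 genes tested when ordered from the highest log2 fold change, and the adjusted p was 0.0519 from edgeR. DESeq2 (adjusted p = 2.04e-07) and limma's voom (adjusted p = 0.00713) called it. The exact two-sided permutation test gave p = 0.1 for each of the 6 genes, the smallest that 3 against 3 allow.

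Uba7, the E1 that starts the cascade, had the lowest mean TPM of the 6 in both groups, although it stood above Herc6 in scramble replicates 2 and 3. Its TPM was 9.49, 7.57 and 9.69 over the scramble replicates, against 21.3, 19.8 and 11.2 over those of the knockdown. Knockdown replicates 1 and 2 stood at about the same level, and knockdown replicate 3 came close to the scramble libraries. Uba7 rose 2.06-fold, on the log2 scale 1.04 with a standard error of 0.225 (edgeR adjusted p = 0.038).

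Ube2l6, the E2, was the most abundant of the 6 in the scramble group and had the lowest fold. Its TPM was 132, 91.2 and 108 over the scramble replicates, against 158, 181 and 155 over those of the knockdown. It was the 1 gene of the system in which knockdown replicate 2 stood above knockdown replicate 1 and in which knockdown replicate 3 was level with another knockdown library. Ube2l6 rose 1.57-fold, on the log2 scale 0.65 with a standard error of 0.133 (edgeR adjusted p = 0.0211).

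For Herc6, the ligase, TPM was 12.9, 6.87 and 9.65 over the scramble replicates, against 34.5, 30.7 and 20.4 over those of the knockdown. The groups were separated by a factor of 1.58 between the nearest libraries. Herc6 rose 3.06-fold, on the log2 scale 1.61 with a standard error of 0.283 (edgeR adjusted p = 0.0336).

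For Usp18, which takes ISG15 off proteins and damps interferon receptor signalling, TPM was 28.7, 12.9 and 18.5 over the scramble replicates, against 99.8, 86.3 and 57.1 over those of the knockdown. The nearest libraries of the groups differed by a factor of 1.99, second to Isg15 among the 6 genes. Usp18 rose 4.24-fold, on the log2 scale 2.09 with a standard error of 0.357 (edgeR adjusted p = 0.039).

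Rnf213 TPM was 65.9, 43.7 and 58.5 over the scramble replicates, against 253, 208 and 109 over those of the knockdown. Knockdown replicate 3 lay between the scramble libraries and the other knockdown libraries. Rnf213 rose 3.56-fold, on the log2 scale 1.83 with a standard error of 0.327 (edgeR adjusted p = 0.0352). The gene is long and had the most reads of the 6, 5455 to 8709 counts in the scramble libraries and 17245 to 36081 in the knockdown libraries.

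The order of the libraries within a group was largely shared by the 6 genes. On the TMM scale all 6 had their highest scramble value in replicate 1, the next in replicate 3 and the lowest in replicate 2, an order that 19.2% of all genes tested shared. In the knockdown group, replicate 3 was the lowest library for 5 of the 6, beside 35.9% of all genes, and Ube2l6 was the exception. Knockdown replicate 3 was also the library of its group with the highest Hnf1aos1 value. The scramble group did not show that inverse order. Its replicate 2 was lowest for Hnf1aos1 as well as for all 6 genes, and its replicate 3 had the highest Hnf1aos1 value. Whether the level of Hnf1aos1 had a part in the level of the 6 genes was not tested.

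Which genes passed depended on the libraries included. With knockdown replicate 3 left out, 6 of the 6 were called, with edgeR adjusted p from 4.43e-06 for Rnf213 to 0.0280 for Usp18, and 0.0273 for Isg15. With knockdown replicate 2, scramble replicate 2 or scramble replicate 3 left out, 0 of the 6 were called by edgeR, though every unadjusted p stayed between 0.00151 and 0.0157. Without knockdown replicate 1 edgeR called 1, Ube2l6, and without scramble replicate 1 it called 3, Ube2l6, Herc6 and Usp18. The directions did not change: the lowest log2 fold change in these fits was 3.16 for Isg15, 1.85 for Usp18, 1.60 for Rnf213, 1.42 for Herc6, 0.90 for Uba7 and 0.54 for Ube2l6. All genes called higher fell to 38 without scramble replicate 3 and reached 1015 without knockdown replicate 3.

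**Figure D2:**
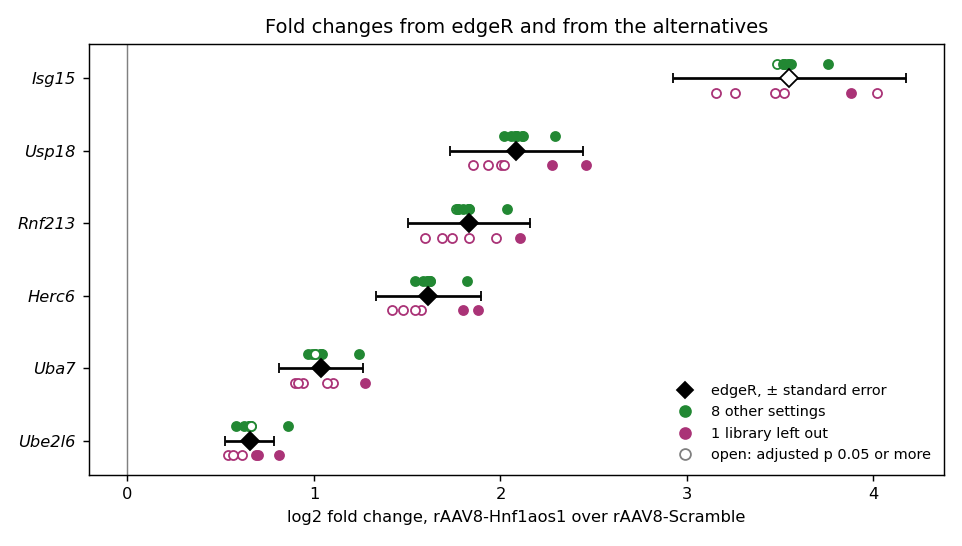
Log2 fold change (x axis) of each gene from edgeR (black diamonds with standard error), from 8 other settings of scaling, filter and test (green) and from fits without 1 library (purple), filled where the adjusted p was under 0.05. Isg15 lies farthest to the right at 3.55 with an open diamond, and no marker of any gene lies below 0.

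The order of the mean levels differed between the groups. By mean TPM in the scramble group, Ube2l6 (110.4 ± 20.4, SD, n = 3) stood first, followed by Rnf213 (56.1 ± 11.3), Isg15 (26.1 ± 12.9), Usp18 (20.01 ± 8.01), Herc6 (9.80 ± 3.01) and Uba7 (8.92 ± 1.17). Isg15 and Usp18 overlapped over the libraries, and so did Herc6 and Uba7, whereas the other neighbours in that order did not. In the knockdown group Isg15 (293 ± 151) stood first, then Rnf213 (189.8 ± 73.7), Ube2l6 (165 ± 14.0), Usp18 (81.1 ± 21.9), Herc6 (28.5 ± 7.31) and Uba7 (17.4 ± 5.42). There the first 3 overlapped in range, Isg15 was above Rnf213 in 3 of 3 knockdown libraries and Rnf213 above Ube2l6 in 2 of 3, and in knockdown replicate 3 Ube2l6 (155) stood above Isg15 (141) and Rnf213 (109), and Herc6 and Uba7 overlapped again.

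As parts of their sum, Isg15 took a larger share in the knockdown group and Ube2l6 and Uba7 smaller ones, although the TPM of each was higher there. The summed TPM of the 6 genes was 289, 177 and 229 in scramble replicates 1 to 3 and 1009, 822 and 493 in knockdown replicates 1 to 3. Isg15 made up 10.8% ± 2.88 of the sum for scramble and 36.1% ± 7.67 for knockdown (SD, n = 3 each), while Ube2l6 made up 48.2% ± 3.11 and 23.0% ± 7.94. Uba7 made up 3.94% ± 0.563 and 2.26% ± 0.152. The ranges of these 3 shares did not overlap between the groups. Rnf213 kept about the same share, 24.4% ± 1.41 and 24.1% ± 1.79, as did Herc6 with 4.19% ± 0.286 and 3.76% ± 0.358.

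**Figure D3:**
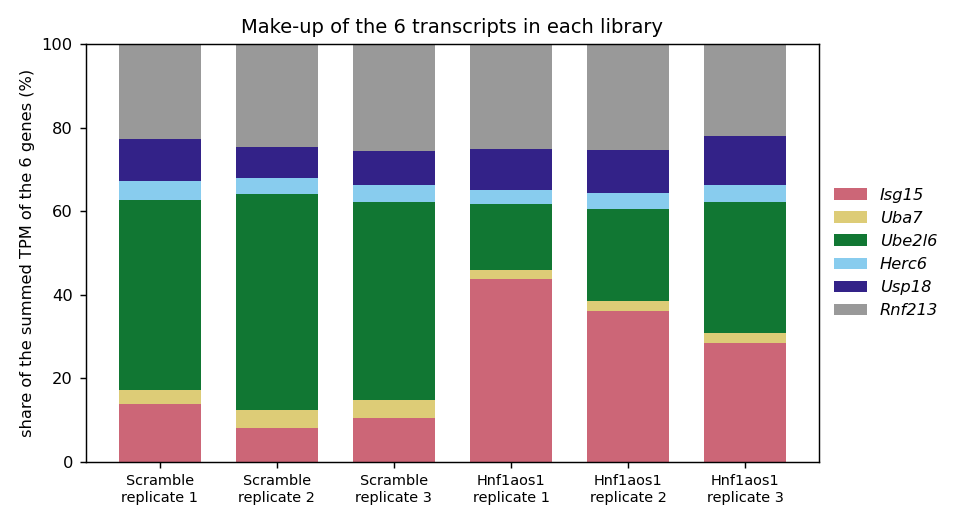
Share of each gene in the summed TPM of the 6 genes (y axis, percent) in each library, stacked to 100. Isg15 takes 8.08 to 13.8% in the scramble libraries and 28.5 to 43.8% in the knockdown libraries.

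The ratio of 2 genes within a library does not depend on how libraries are scaled. For each molecule of Usp18, the protease, there were 1.39, 1.11 and 1.30 of Isg15 by TPM in scramble replicates 1 to 3, and 4.43, 3.44 and 2.46 in knockdown replicates 1 to 3. The log2 ratio changed by 1.41, from 0.33 ± 0.170 to 1.74 ± 0.425 (SD, n = 3 each). Of 3 such ratios compared by exact two-sided permutation, each gave p = 0.1 (0.1 after Benjamini-Hochberg adjustment over the 3), the smallest that the design allows. Each ratio was higher in every knockdown library than in any scramble library.

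The other ratios set an interferon-induced enzyme against the ubiquitin enzyme of the same step. Ube2l6 to Ube2l3, a ubiquitin E2 of the same family, was 2.23, 1.39 and 1.67 by TPM over the scramble replicates, against 2.45, 2.99 and 2.66 over those of the knockdown. Uba7 to Uba1, the main ubiquitin E1, was 0.106, 0.0841 and 0.12 over the scramble replicates, against 0.228, 0.22 and 0.129 over those of the knockdown. The E1 of ISG15 was thus the rarer transcript of its pair in all 6 libraries, and the E2 of ISG15 the more abundant one.

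The ubiquitin counterparts themselves were not called, and 2 of them changed sign with the scaling: Herc3 went to 0.01 with spike-in library sizes, where the middle gene of the table had a log2 change of 0.20, and Ube2l3 to −0.05 with library totals. Spike-in sizes put Uba1 at 0.32 and Ube2l3 at 0.22. Uba1 stood at 87.0 ± 5.17 TPM for scramble and 89.9 ± 3.24 for knockdown (SD, n = 3), a log2 change of 0.12 (standard error 0.0943, edgeR adjusted p = 0.466). Ube2l3 stood at 63.2 ± 3.64 and 61.1 ± 3.19 TPM (log2 fold change 0.02, standard error 0.0854, adjusted p = 0.893 from edgeR). Herc3, another ligase with a HECT domain, stood at 3.57 ± 0.198 and 2.96 ± 0.138 TPM (log2 fold change −0.19, standard error 0.109, adjusted p = 0.313 from edgeR). On the TMM scale Uba1 was higher in every knockdown library than in any scramble library, as were 15.2% of all genes tested. Herc3 was lower in every knockdown library, and Ube2l3 overlapped between the groups. Ubb, a polyubiquitin gene, had 313 ± 21.2 and 319 ± 49.5 TPM, so that Isg15 went from far below Ubb to a mean close to it. Ubd, which encodes FAT10, the other modifier with a pair of ubiquitin-like folds, had 2 to 17 counts per library and was not tested.

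**Figure D4:**
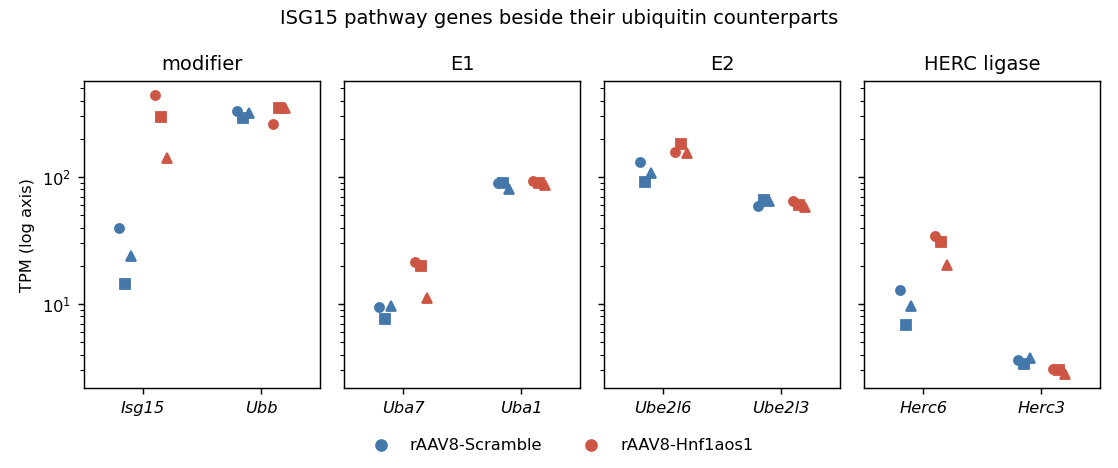
TPM on a log axis of Isg15, Uba7, Ube2l6 and Herc6 beside Ubb, Uba1, Ube2l3 and Herc3 in each library, scramble in blue and knockdown in red. The knockdown markers stand above the scramble markers for the ISG15 genes, whereas the colours lie close together for the counterparts.

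The conjugation machinery of ubiquitin and the other ubiquitin-like proteins was followed in lists written by hand. Of the other modifiers 11 were tested and 0 called by edgeR or by DESeq2 (median log2 fold change 0.19), among them ubiquitin, SUMO, NEDD8, UFM1 and URM1 genes. The 8 E1 genes and the 13 E2 genes of these modifiers also gave 0 calls by either tool, with medians of 0.17 and 0.11. These counts of 0 depended on the scaling: with spike-in library sizes edgeR called 8 modifiers, 4 E1 and 6 E2 genes higher, and with no filter 1 in each list. Over all genes tested, those fits called 3030 of 16327 and 870 of 27496 higher. On the TMM scale every knockdown library stood above every scramble library for 4 modifiers, 4 E1 and 4 E2 genes, beside 15.2% of all genes. For 1 E2 gene every knockdown library stood below. At an unadjusted p under 0.05 edgeR had 2 of the modifiers, 1 E1 and 2 E2 genes, and Ufc1, the E2 of UFM1, was nearest to a call (log2 fold change 0.41, standard error 0.113, adjusted p = 0.0522 from edgeR). Of the 4 other HERC ligases tested, 1 fell, the very large Herc1 (log2 fold change −0.30, standard error 0.0804, adjusted p = 0.0471 from edgeR). Of 6 ubiquitin proteases also reported to act on ISG15, 1 fell, Usp2 (log2 fold change −0.87, standard error 0.172, adjusted p = 0.0164 from edgeR), from 2.41 ± 0.117 to 1.25 ± 0.0809 TPM (SD, n = 3). Herc1 was not called once any 1 library was left out (adjusted p 0.0538 to 0.164 from edgeR), with the replicate block (0.0738) or with spike-in sizes, where its log2 fold change was −0.10 (0.456), nor was Usp2 without scramble replicate 2 or scramble replicate 3. For comparison, 3.23% of all genes tested were called lower.

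The list of ubiquitin ligases and related TRIM genes of the innate immune response gave 9 calls among 18 tested. All 9 were higher, and the median log2 fold change of the list was 0.46. Across all genes tested, 3.09% were called higher. Trim25, which ubiquitinates the RNA sensor RIG-I and can also act as an ISG15 ligase, rose from 50.7 to 69.0 TPM in the mean (SD 3.52 and 9.0, n = 3; log2 fold change 0.52, adjusted p = 0.0217 from edgeR). Arih1, which has been described as an ISG15 ligase too, had a log2 fold change of 0.01 (adjusted p = 0.977 from edgeR). Dtx3l, the partner of PARP9, rose from 46.6 ± 3.07 to 83.3 ± 17.8 TPM (log2 fold change 0.91, adjusted p = 0.0041 from edgeR), and Trim21, the cytosolic antibody receptor, by a log2 fold change of 0.89 (adjusted p = 0.0113 from edgeR). The highest log2 fold change among the called genes was that of Trim30d at 2.56 (adjusted p = 0.039 from edgeR). Trim12a, Trim12c, Trim34a, Trim14 and Trim56 were the others called, and Trim12, Trim30 and Trim34 have similar copies between which reads could be split. The list gave 2 calls without scramble replicate 3 and 5 without knockdown replicate 2, with 13 at an unadjusted p under 0.05 in both fits, and 15 with spike-in sizes. All genes called higher numbered 38, 140 and 3030 in those fits, in that order.

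Of 16 genes whose proteins are reported to carry ISG15, all tested as transcripts, 7 rose, among them Ifit1, Ifit3, Mx1, Ifih1, Rigi and Eif2ak2. For comparison, 3.09% of all genes tested were called higher. Ifit1, which binds viral RNA ends, went from 17.7 ± 7.36 to 198 ± 80.8 TPM (SD, n = 3; log2 fold change 3.55, standard error 0.509, adjusted p = 0.0331 from edgeR). The RNA sensors Rigi and Ifih1 had log2 fold changes of 1.30 (adjusted p = 0.0181 from edgeR) and 1.31 (adjusted p = 0.0121 from edgeR). Among those not called were Mx2 (log2 fold change 1.14, adjusted p = 0.0860 from edgeR), Irf3 (−0.02, adjusted p = 0.937 from edgeR) and Eif4e2 (−0.01, adjusted p = 0.967 from edgeR). The median of the list was 0.74. Its calls numbered 0 without scramble replicate 3, 1 without knockdown replicate 2, 2 without scramble replicate 2 and 4 without knockdown replicate 1, while 9 had an unadjusted p under 0.05 in each of these fits. All genes called higher numbered 38, 140, 169 and 293 in the same fits, in that order.

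**Figure D5:**
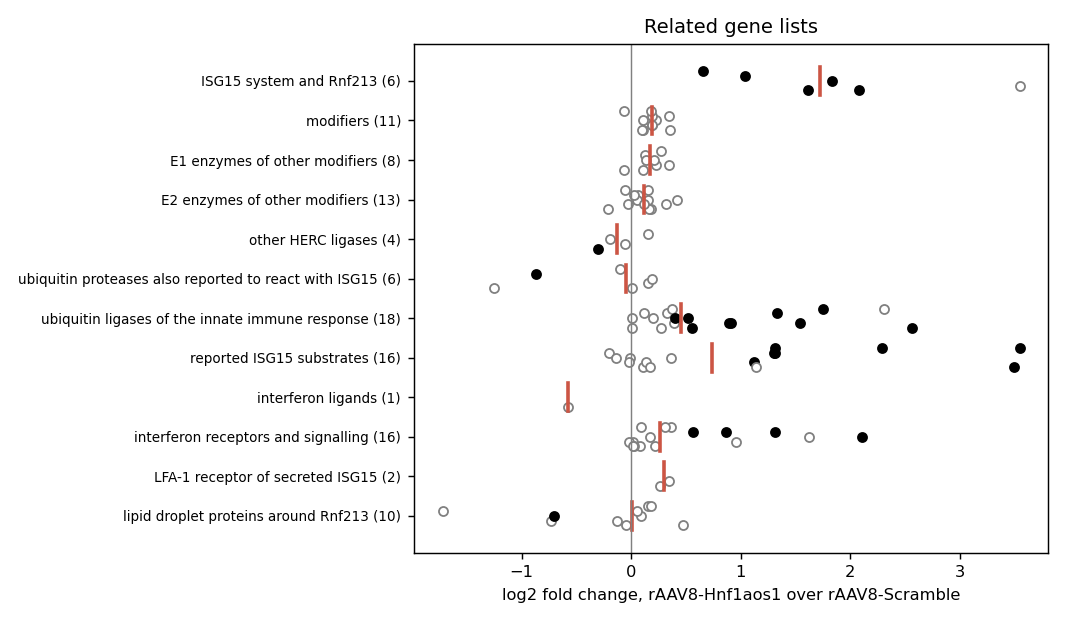
Log2 fold change (x axis) of each tested gene in the ISG15 system and in the lists beside it (number tested in brackets), filled black where called by edgeR, with the median of each list in red. Filled markers above 0 lie in the ISG15 system, the innate immune ubiquitin ligases and related TRIM genes, the reported substrates and the interferon signalling genes.

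Interferon genes themselves were close to the floor of detection. Of 21 ligand genes listed, 18 had 0 counts in all 6 libraries, Ifnb1 among them, Ifng had 5 counts in all and Ifnab 1. Ifnk, an interferon known from skin, was the 1 tested, with 10.9 ± 1.97 TPM for scramble and 6.91 ± 1.58 for knockdown (SD, n = 3; log2 fold change −0.58, adjusted p = 0.163 from edgeR). Of 16 tested genes of interferon receptors and signalling 4 rose, among them Irf9, a DNA-binding factor of interferon signalling, Ifngr2, a chain of the interferon gamma receptor, and Socs3, a feedback inhibitor. The share called higher over all genes tested was 3.09%. Irf9 had 33.7 ± 4.85 TPM with the scramble virus and 47.2 ± 4.68 with the knockdown virus (SD, n = 3; log2 fold change 0.56, adjusted p = 0.0217 from edgeR). Stat2, which binds IRF9, had a log2 fold change of 0.31 (adjusted p = 0.0927 from edgeR). The receptor chains of type I interferon, Ifnar1 and Ifnar2, had log2 fold changes of 0.21 and 0.02 and were not called. The list gave 0 calls without scramble replicate 3, 1 without scramble replicate 2 or knockdown replicate 2, and 2 without knockdown replicate 1, with 7 or 8 at an unadjusted p under 0.05 in these fits, and 8 calls with spike-in sizes. All genes called higher numbered 38, 169, 140, 293 and 3030 in those fits, in that order.

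Among 10 genes for proteins of lipid droplets, where RNF213 is found, 1 was called, lower, beside 3.23% of all genes tested. DESeq2 called 3 lower, beside 603 of the 17367 genes it tested. Plin5, which ties droplets to mitochondria, fell from 30.1 ± 3.23 to 17.4 ± 3.06 TPM (SD, n = 3; log2 fold change −0.70, standard error 0.147, adjusted p = 0.0224 from edgeR). Plin5 was not called without scramble replicate 2 or scramble replicate 3 (adjusted p 0.0702 and 0.122 from edgeR). Pnpla2, which encodes the lipase ATGL, and Faf2 had log2 fold changes of 0.06 and 0.09 and were not called. G0s2 had the widest change of the list without a call (log2 fold change −1.72, standard error 0.343, adjusted p = 0.0529 from edgeR). Plin4 (−0.73, adjusted p = 0.108 from edgeR) and Abhd5 (0.48, adjusted p = 0.0817 from edgeR) were not called either. The chains of LFA-1, a receptor for secreted ISG15 on lymphocytes, were not called either, with log2 fold changes of 0.26 for Itgal and 0.34 for Itgb2.

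The profile of a gene over the 6 libraries was compared with those of the ISG15 system as the root-mean-square difference of log2 CPM, each gene centred on its own mean. The 10 genes nearest to the mean profile of the 6 were Irf7, Igtp, Gbp6, Ddx60, Dhx58, Trim12c, Trim34a, Irgm1, Parp14 and Xaf1, at differences of 0.0984 to 0.178. Irf7, an interferon-induced transcription factor, had 42.6, 20.5 and 30.9 TPM in scramble replicates 1 to 3 and 116, 99.4 and 60.6 in knockdown replicates 1 to 3, with scramble replicate 2 and knockdown replicate 3 the lowest. Among the 6 genes Herc6 and Rnf213 lay closest to the mean, at 0.0922 and 0.12, and Isg15 lay farthest, at 0.915. Ranked among the genes outside the system by nearness to that mean, Uba7 stood at 93, Ube2l6 at 364 and Isg15 at 5380. This difference counts the size of a change as well as its pattern. Isg15 had the same order of libraries as the mean within both groups, with a wider change, so its rank does not describe its pattern. Nearest to Isg15 were Ifit1 and Ifit3b, at 0.18 and 0.226, nearest to Usp18 were Ddx60 and Slfn9, and nearest to Rnf213 were Igtp and Gbp3. Nearest to Herc6 were Irf7 and Dhx58. Uba7 lay nearest to Fga, a fibrinogen chain, and Spic, a macrophage transcription factor, and Ube2l6 to Ift122 and Irf9. These are descriptions over 6 libraries in 2 groups.

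Markers of other cell types were measured beside the system. Of 11 Kupffer cell and macrophage markers, edgeR called 4 higher (Adgre1, Clec4f, C1qa and C1qb), 10 did not overlap between the groups, and the median log2 fold change of the 11 was 0.45. Over all genes tested, 3.09% were called higher and 15.2% had every knockdown library above every scramble library. The summed TPM of the 11 markers ran from 248 to 299 in the scramble libraries and from 303 to 396 in the knockdown libraries, against 177 to 289 and 493 to 1009 for the 6 genes. Leaving out scramble replicate 2 or 3 or knockdown replicate 1 or 2 gave 0 calls among the markers, with 8 or 9 at an unadjusted p under 0.05, and leaving out knockdown replicate 3 gave 8 calls. All genes called higher numbered 169, 38, 293 and 140 in the first 4 of these fits and 1015 in the last. The count of called markers also moved with the scaling and filter, to 1 with library totals, 2 with a minimum mean of 50 counts, 8 with no filter and 11 with spike-in sizes. Those settings called 319, 366, 870 and 3030 of all genes higher, in that order. Of 11 tested markers of other leukocytes, 0 were called by edgeR or by DESeq2 and 0 had an unadjusted p under 0.05, their summed TPM was 19.4 to 28.6 and 21.1 to 29.9, and Ly6g was at 0 in all 6 libraries. S100a8 and S100a9, genes of neutrophils and other myeloid cells, were too low to be tested, with 26 and 30 counts in all, yet every knockdown library exceeded every scramble library: 1.12 to 3.22 against 0.337 to 0.755 TPM for S100a8, and 1.26 to 2.80 against at most 0.505 TPM for S100a9. With no filter on low counts edgeR called 1 gene of the leukocyte list. Sinusoidal endothelial markers summed to 167 to 177 TPM and 140 to 171, and stellate cell markers to 189 to 241 and 159 to 205. Cholangiocyte markers summed to 32.8 to 38.9 and 46.8 to 183 TPM, of which Spp1 gave 21.7 to 24.8 and 31.0 to 167. Krt19 had a log2 fold change of −1.03, and 0 of 4 were called or had an unadjusted p under 0.05 in edgeR, nor did DESeq2 call any. The hepatocyte markers summed to at least 82208 TPM in every library, with 0 of 8 called by edgeR (3 at an unadjusted p under 0.05) and 1 by DESeq2. The part of these cells in the levels of the ISG15 genes was not tested.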

How the data were processed

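Liver RNA of 6 mice was sequenced, 1 library each. The methods name poly(A) selection with a stranded kit and the labels rRNA depletion. Per the methods, the authors trimmed reads with Trimmomatic, aligned them with STAR to GRCm38 (the labels name GRCm39) and counted uniquely mapped exonic reads with featureCounts. The authors deposited these raw counts for 40895 features, 92 of them ERCC spike-ins (1.18 to 1.52% of counts), kept out of sizes and fits. The authors' deposited TPM is scaled for gene length and depth, by a computation that is not described. The authors' normalized counts are a signal, the counts divided by 1 factor per library. The authors' table of fold changes and p-values was not used.

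Groups came from the sample titles. edgeR 4.0.16 (R 4.3.3) used TMM scaling, filterByExpr and the robust quasi-likelihood test with group as the only term, which left 16327 of 40803 genes. A standard error is the log2 fold change divided by the root of the F statistic. DESeq2 1.42.0, limma 3.58.1 (voom), other scalings, no filter, a mean of 50 counts as the filter, a replicate block and each library left out were the alternatives. Log2 CPM had a prior count of 2. The members, lists and rules were chosen with earlier results of these data known. Genes are named if they are members, their counterparts, called genes of the lists, markers or nearest profiles; others named from the lists were chosen after their values were seen. The chi-square per gene between replicates was 7.68 to 31.6, above sampling noise, so each library was counted as 1 sample. Scripts were tested on simulated data. Positions are from GENCODE M21 by symbol. Protein sequences were not used here. Some genes of the lists are counted but not reported here by name.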

Additional observations from a re-analysis of the deposited data

How the results depend on the processing

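Each of the 6 genes kept a log2 fold change above 0 in the 60 alternative values other than left-out libraries. Of the 48 that come with a test, 37 kept their side of the threshold, 6 lost the call and 5 gained it. Isg15 passed it with library sizes from the ERCC spike-ins (3.75), a minimum mean of 50 counts (3.52), DESeq2 (3.56), limma's voom (3.52) and the replicate block (3.52, adjusted p = 0.0371 from edgeR). With no filter on low counts, Herc6 (1.61), Usp18 (2.08) and Rnf213 (1.83) were no longer called, so that 2 of the 6 were called and 1 of them past a log2 fold change of 1. With library totals Rnf213 (1.76, adjusted p = 0.0501 from edgeR) was not called, and 2 were past 1. With the replicate block, Uba7 (1.00, adjusted p = 0.0542 from edgeR) and Ube2l6 (0.66, adjusted p = 0.0515 from edgeR) were not called. The labels give no link between libraries of the same number beyond that number. Over all genes tested, the correlations of their deviations from the group means were −0.0226, 0.0231 and 0.0032. Libraries of different numbers gave −0.0287 to 0.0272. With 3 libraries per group these values cannot decide whether libraries were paired.

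Leaving out 1 library gave log2 fold changes of 3.16 to 4.02 for Isg15, 0.90 to 1.27 for Uba7, 0.54 to 0.82 for Ube2l6, 1.42 to 1.88 for Herc6, 1.85 to 2.46 for Usp18 and 1.60 to 2.10 for Rnf213. It gave 0 to 6 of the 6 called and 0 to 5 past 1, 38 to 1015 genes called higher and 65 to 866 lower, and 2 to 25 genes of the lists called higher and 0 to 4 lower. All genes called higher numbered 319 with library totals, 3030 with spike-in sizes and 870 with no filter, and 1032 were called lower with no filter. Genes of the lists called higher numbered 57 with spike-in sizes, and 5 were called lower by DESeq2. The cause of these differences was not tested. Of the gene ratios, 0 changed direction. Each group had 3 mice with 1 library each, so spread between mice and spread between library preparations cannot be told apart.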
